A study of Homo sapiens with 7 samples.

Results

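This section describes 9 genes that carry out and regulate the response of cells to low oxygen: HIF1A, EPAS1, ARNT, EGLN1, EGLN2, EGLN3, VHL, HIF1AN and VEGFA. They were chosen by name, as the rows of the deposited table with these symbols, and each symbol had 1 row, so they make up 9 of the 24721 gene symbols listed. The study mapped N6-methyladenosine (m6A), a methyl mark on adenosines inside messenger RNA, in untreated cultures given the label HepG2, a line derived from a human liver carcinoma, grown in high-glucose medium with serum. The labels name no oxygen treatment. From poly(A)-selected RNA cut to roughly 100 nt, 4 libraries were made after immunoprecipitation with an m6A antibody and 3 from input RNA. The table gives 1 expression quantile per transcript (a rank from 0 to 1) and a list of peaks for all 7 libraries together, with no value per library. Replicate error, library depth and a test of immunoprecipitate against input could therefore not be had, and all comparisons here are descriptions.

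In this pathway, a hypoxia-inducible factor (HIF) is a pair of an oxygen-regulated alpha subunit (HIF1A or EPAS1, also called HIF2A) and the stable partner ARNT. When oxygen is present, the prolyl hydroxylases EGLN1, EGLN2 and EGLN3 hydroxylate the alpha subunit, and the ubiquitin ligase adaptor VHL binds the hydroxylated form and marks it for degradation. HIF1AN (factor inhibiting HIF) hydroxylates an asparagine that blocks coactivator binding. VEGFA, a secreted growth factor for blood vessels, is a classical target that HIF switches on. The m6A mark is written at the RRACH consensus (in DNA letters, R stands for either purine and H for any base except G) and is known to be frequent around stop codons.

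The label of the cells was checked against lists of marker genes, which were chosen with earlier results of these data known. Of 18 liver genes, 8 stood above the lowest quantile, and the highest was FGB at 0.619. None of the 18 had a peak. Of the 5423 coding transcripts with a quantile from 0.30 to 0.35, 0 had one, so the lack of peaks adds little to this check. The defining liver genes ALB, AFP, TTR, SERPINA1 and APOB were all listed at that lowest quantile, 0.314. All 6 genes of ovarian or Müllerian epithelium were above it, led by MSLN (0.968), MUC16 (0.667) and SOX17 (0.648), with PAX8 and WT1 at 0.496 and 0.333. Of 4 lung genes 2 were above it (NKX2-1 at 0.696), of 4 intestinal genes 1 (MUC2 at 0.433), of 3 breast genes 3 (highest TFF1 at 0.530) and of 3 squamous genes 2 (highest KRT14 at 0.578). These values go against a liver cell label, so the cells are called by their label only. The part of cell identity in the results was not tested.

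The sequences nearest to the peaks of 7 of the 9 genes are shown first, so that the consensus sites near each listed position can be read beside its values. Each line gives the RRACH nearest to the listed position of the gene's highest-scoring peak, with 12 nt on either side of its central A. In EPAS1 that site is 53 nt from the listed position. For EGLN1 and VEGFA a weaker peak in the coding sequence is shown as well. Capitals mark every complete RRACH in the window. The letters are those of GENCODE release 29 transcripts (GRCh38), written 5′ to 3′ on the transcript strand.
EPAS1, around the stop codon (3′ UTR, exon 16): tttacaagatGGACTtacctggcag
EGLN1, around the stop codon (3′ UTR, exon 5): gtgttgcatcAAACAgaagattttg
EGLN1, first coding sequence peak (exon 1): accagcgtcaGGACTggaagaagca
EGLN2, coding sequence (exon 1): gcctggccctGGACTatatcgtgcc
EGLN3, coding sequence (exon 1): tcatgaggctGGACCtggagaaaat
VHL, around the stop codon (coding sequence, exon 3): acaggAGACTGGACAtcgtcaggtc
HIF1AN, around the stop codon (3′ UTR, exon 8): tgcacttaatGGACTGGACTcttgc
VEGFA, 3′ UTR (exon 8): acGGACAgaaAGACAgatcacaggt
VEGFA, coding sequence (exon 1): gctgacGGACAGACAGACAGACAcc
Of these 9 windows, those of HIF1AN, VHL and VEGFA hold more than 1 RRACH, with a tandem GGACT repeat in HIF1AN and a run of overlapping sites in the coding sequence window of VEGFA. On GRCh38 the EPAS1 window is chr2:46384763-46384787 (plus strand), and the EGLN1 windows are chr1:231366251-231366275 and chr1:231421728-231421752 (minus strand). The EGLN2 window is chr19:40801099-40801123 (plus), that of EGLN3 is chr14:33950712-33950736 (minus) and that of VHL is chr3:10149847-10149871 (plus). The HIF1AN window is chr10:100548235-100548259, and those of VEGFA are chr6:43785273-43785297 and chr6:43770706-43770730, all on the plus strand.

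Of the 9 genes, 7 had at least 1 peak and together they carried 14 peaks, while HIF1A and ARNT had none. All 9 were expressed well above the lowest quantile of 0.314, between 0.701 (EGLN3) and 0.965 (VEGFA), with a median of 0.856 against 0.591 for all coding transcripts. Over the table, 35.0% of the 19965 coding transcripts had a peak, and 45.8% of those above the lowest quantile. Among the 6564 other coding transcripts with a quantile between those of EGLN3 and VEGFA the share was 69.3% (95% Wilson interval 68.2 to 70.4%, counting error only). A count of 7 in 9 is near that background and is not a result about these genes. A peak outside the transcript start was present in 7 of the 9, against 60.6% of those 6564 transcripts. A peak of score 2.5 or more was present in 4 of the 9 (59.2%), of 3 or more in 3 (48.0%) and of 4 or more in the same 3 (24.8%). What distinguishes them from each other is how many peaks they had, where these lay and how high they scored.

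**Figure D1:**
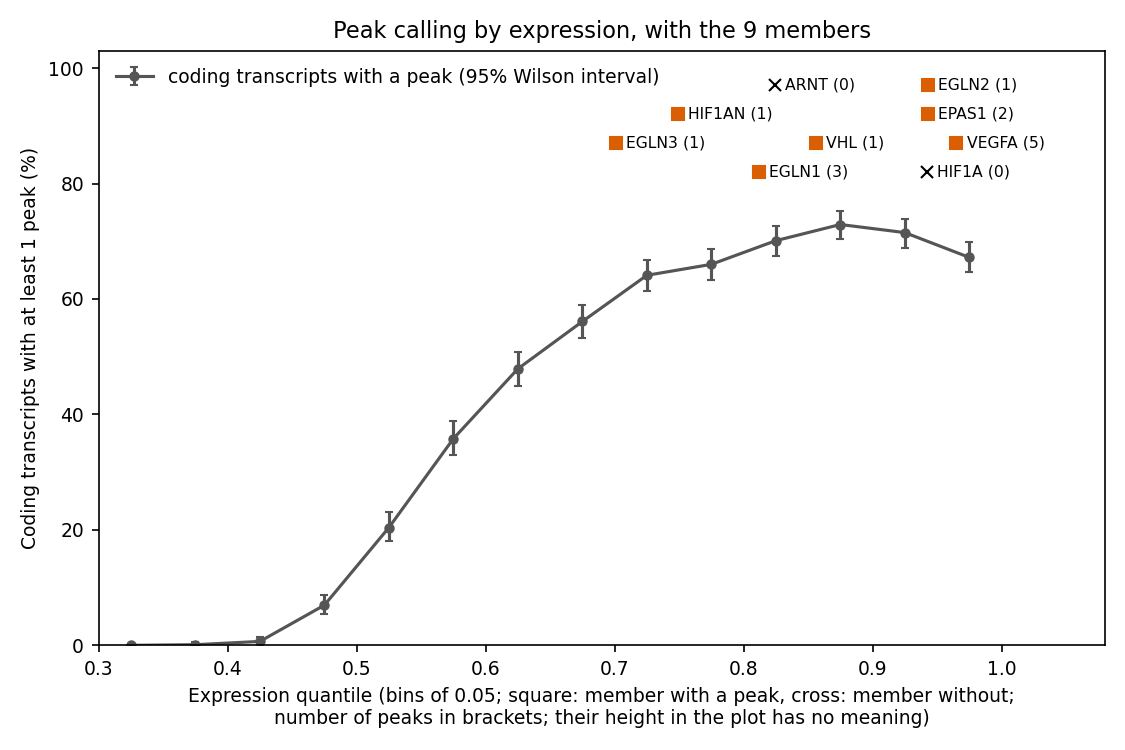
Share of coding transcripts with at least 1 peak (y axis, percent, with 95% Wilson intervals) in bins of the expression quantile (x axis). Squares and crosses place the 9 genes on the x axis only, with their number of peaks in brackets. HIF1A and ARNT, without a peak, sit where 70.1% and 69.8% of like-expressed coding transcripts had one, and HIF1A, EPAS1 and EGLN2 share nearly the same quantile.

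The HIF subunits differed at like expression. HIF1A, the alpha subunit found in nearly all cell types (chromosome 14, 61231992 to 61284729, plus strand, in the table's build), had a quantile of 0.942 and no peak. EPAS1, its paralog (chromosome 2, 46378067 to 46467340, plus strand), had a quantile of 0.943 and 2 peaks, both in the last exon. The first lay 65 nt after the end of the coding sequence with a score of 2.56, and the other 899 nt after it, in the 3′ UTR, with a score of 2.06. Both scores are low in the table, at percentiles 26.5 and 3.41 of all peaks. At least 2 peaks were present in 15.6% of all coding transcripts and in 31.4% of those expressed like EPAS1. ARNT, the shared partner (chromosome 1, 149048810 to 149115810, minus strand), had no peak at a quantile of 0.824. Among other coding transcripts within 0.02 of its quantile, 70.1% had a peak beside HIF1A, 70.2% beside EPAS1 and 69.8% beside ARNT, so many transcripts of that level were also without one. With transcript length matched as well, the share was 78.5% for HIF1A and 76.8% for ARNT.

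The transcripts without peaks held many consensus sites. The GENCODE transcript used for HIF1A has 67 RRACH in 3919 nt, or 17.1 per kb, which is near the upper end of the matched transcripts with peaks (median 13.6, central 80% from 9.86 to 17.5). It has 2 GGACT, neither of them within 200 nt of the end of the coding sequence, where 7 RRACH lie. ARNT has 74 RRACH in 4887 nt, or 15.1 per kb, and 6 GGACT, with 2 RRACH and no GGACT within 200 nt of the end of the coding sequence. EPAS1 has fewer RRACH per kb, at 13.6, and 2 of its 6 GGACT lie within 200 nt of that point. Of the other genes with a peak around the stop codon, EGLN1 and VEGFA have 0 GGACT there, VHL 1 and HIF1AN 3. Whether these sites bear on the peaks was not tested. A transcript listed without a peak may still carry the mark below the authors' threshold, since no listed score was under 2.00.

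The 3 prolyl hydroxylase genes all had a peak in the coding part of exon 1. EGLN1 (PHD2, the main oxygen sensor in most cells, chromosome 1, 229568054 to 229627413, minus strand) had 3 peaks at a quantile of 0.812. A pair lay in the coding part of its 4047 nt first exon, 156 and 675 nt after the start codon, with scores of 2.08 and 2.17. The third was the highest of the family, scoring 4.14 at 174 nt after the end of the coding sequence, in the last exon. Of all coding transcripts 6.46% had 3 or more peaks, and of those expressed like EGLN1 17.9%. EGLN2 (PHD1, chromosome 19, 45998021 to 46006177, plus strand) was more strongly expressed, at 0.943, but had 1 peak with a score of 2.03, at percentile 1.25 of all peaks, 524 nt after the start codon. EGLN3 (PHD3, itself induced by HIF in many cells, chromosome 14, 33463172 to 33490035, minus strand) was the least expressed of the 9, at 0.701, and had 1 peak with a score of 2.29, 28 nt after the start codon. Of the coding transcripts expressed like EGLN1, EGLN2 and EGLN3, 71.4%, 70.5% and 58.2% had a peak.

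The exons of these paralogs are built alike. In the GENCODE models of EGLN1, EGLN2 and EGLN3 a long first exon is followed by internal exons of 120 and 137 nt and then by 1 of 68, 68 and 74 nt. None of the short internal exons had a peak, and the peaks of exon 1 lay 734 and 215 nt (EGLN1), 318 nt (EGLN2) and 328 nt (EGLN3) before its splice junction. With VEGFA, 4 of the 9 genes had a coding sequence peak in exon 1 as the table numbers exons. Of all coding transcripts 2.15% had one, of the 6564 in the same range of expression 4.22%, and of those with any peak 6.14%. This feature was picked out after the positions were seen, so no test is given. The length of the first exon moves with it, and its part in the count was not tested. In EGLN2 the numbering depends on the transcript, because other GENCODE forms hold the same sequence in exon 2.

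**Figure D2:**
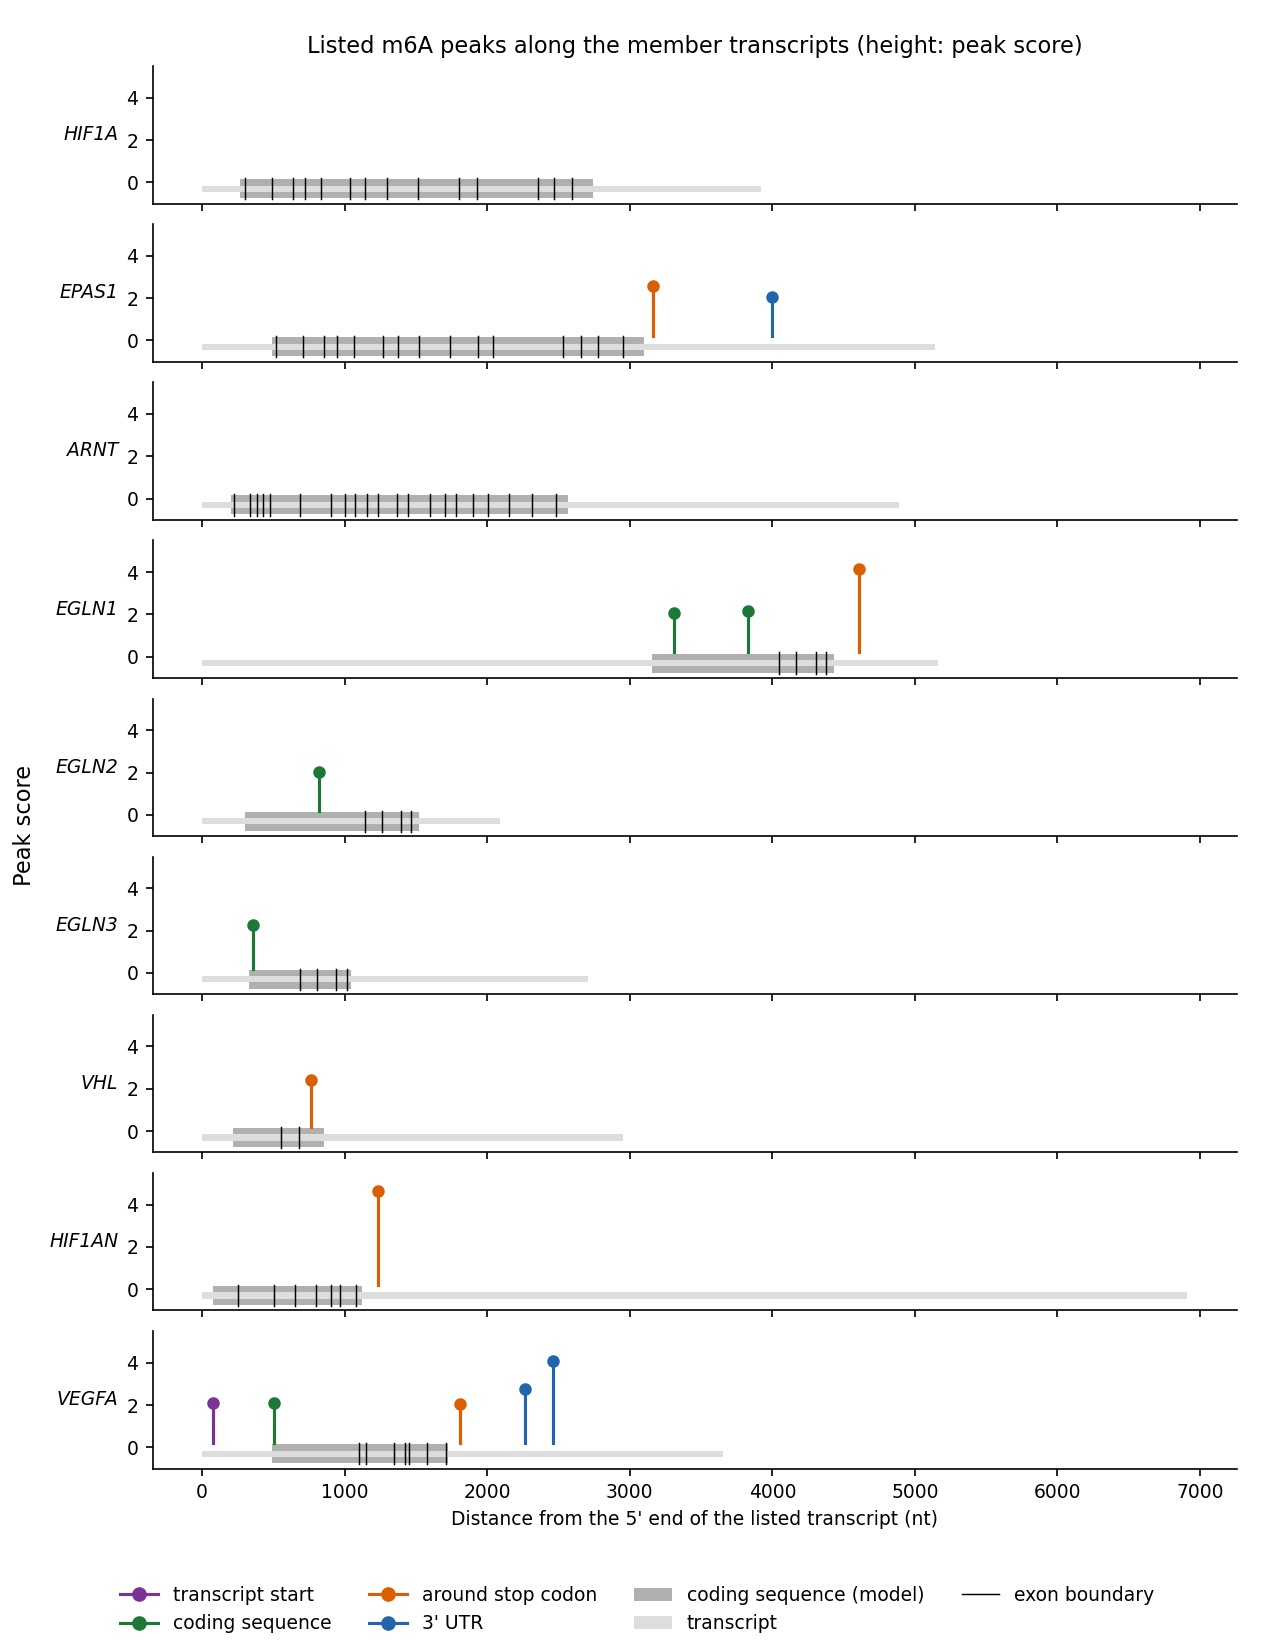
Listed peaks along the 9 transcripts, with distance from the 5′ end in nt on the x axis and the authors' peak score on the y axis. Pale bars are the transcripts, dark bars the coding sequence and thin lines the exon boundaries of the GENCODE models, cut to the table's ends where these could be worked out (HIF1A and ARNT are drawn whole). All peaks stand over first or last exons, and the 3 peaks above a score of 4 are those of EGLN1, HIF1AN and VEGFA.

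VHL and HIF1AN, which act on the alpha subunits after and beside the prolyl hydroxylases, had 1 peak each, both around the stop codon. VHL (chromosome 3, 10158319 to 10168746, plus strand) had a quantile of 0.856 and a peak with a score of 2.40 in exon 3, 88 nt before the end of the coding sequence. Its nearest RRACH, GGACA, lies 15 nt upstream of the listed position and follows an AGACT directly. HIF1AN (chromosome 10, 102285631 to 102303671, plus strand) had the highest score of the 9 genes, 4.64, at percentile 88.3 of all peaks and 82.7 of peaks around stop codons. That peak lay 113 nt after the end of the coding sequence in the 5832 nt last exon, and its listed position falls on the A of the first GGACT of the tandem repeat. HIF1AN reached this score at a quantile of 0.749, below those of all the others but EGLN3. Of the coding transcripts expressed like VHL and HIF1AN, 70.4% and 66.8% had a peak.

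VEGFA had the most peaks. Its transcript (chromosome 6, 43845931 to 43862201, plus strand) had the highest quantile of the 9, 0.965, and 5 peaks, a number that 1.23% of all coding transcripts and 1.57% of those of like expression reached or passed. At least 1 peak was present in 71.0% of the latter. They covered 4 of the 5 segments of the table. In exon 1, a peak at position 76 (transcript start) scored 2.11 and 1 at position 503 (coding sequence) also scored 2.11. In exon 8, those at positions 1811 (around the stop codon), 2264 and 2463 (both 3′ UTR) scored 2.06, 2.78 and 4.07. The score thus stood out at position 2463, at percentile 77.5 of all peaks, and was under percentile 10 at 3 of the other positions. The peak at position 503 lies 11 nt after the first base of the annotated coding sequence, which in this long form of VEGFA opens with a CTG upstream of the usual start codon, so on shorter forms the same site is in the 5′ UTR. Its listed position falls on an A in the run of overlapping RRACH shown above.

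In the last exon of VEGFA, positions depend on the splice form. The table lists 8 exons, and its description names isoform a, the long form, for which the model took the 123 nt version of exon 6. With the 72 or 54 nt form of GENCODE, the peak at position 2463 moves from 736 to 787 or 805 nt after the end of the coding sequence, and its nearest RRACH from 10 to 0 or 18 nt away. The peak at position 2264 moves from 20 to 31 or 49 nt from its nearest RRACH, and that of position 1811 stays at 7 nt. The genes most like VEGFA, as coding genes with the same number of peaks in each segment, were HSPA12A and KPNA6, the 2 that matched. Their top scores were 4.46 and 5.22, which is 0.39 and 1.15 above that of VEGFA, at quantiles of 0.620 and 0.824. KPNA6 is an importin alpha and HSPA12A a distant member of the HSP70 family.

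Over the 14 peaks, 5 lay in the coding sequence, 5 around the stop codon, 3 in the 3′ UTR, 1 at the transcript start and 0 elsewhere in the 5′ UTR. Over all coding transcripts the shares were 36.6%, 27.6%, 20.5%, 12.5% and 2.78%. Scores were low: 11 of the 14 were below the median of all peaks, 3.15, and 3 of 14 reached 3, against 55.8% of the peaks of coding transcripts. The median over the 14 peaks was 2.23, and the median of the 7 genes' top scores was 2.56, against 3.56 over all genes with a peak. All 5 coding sequence peaks were weak, from 2.03 to 2.29, at percentiles 0.946 to 14.9 of coding sequence peaks. Peaks around the stop codon spread widely, from 2.06 in VEGFA to 4.64 in HIF1AN. Peaks of 1 transcript share their RNA and are not replicates, and the score has no stated scale.

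**Figure D3:**
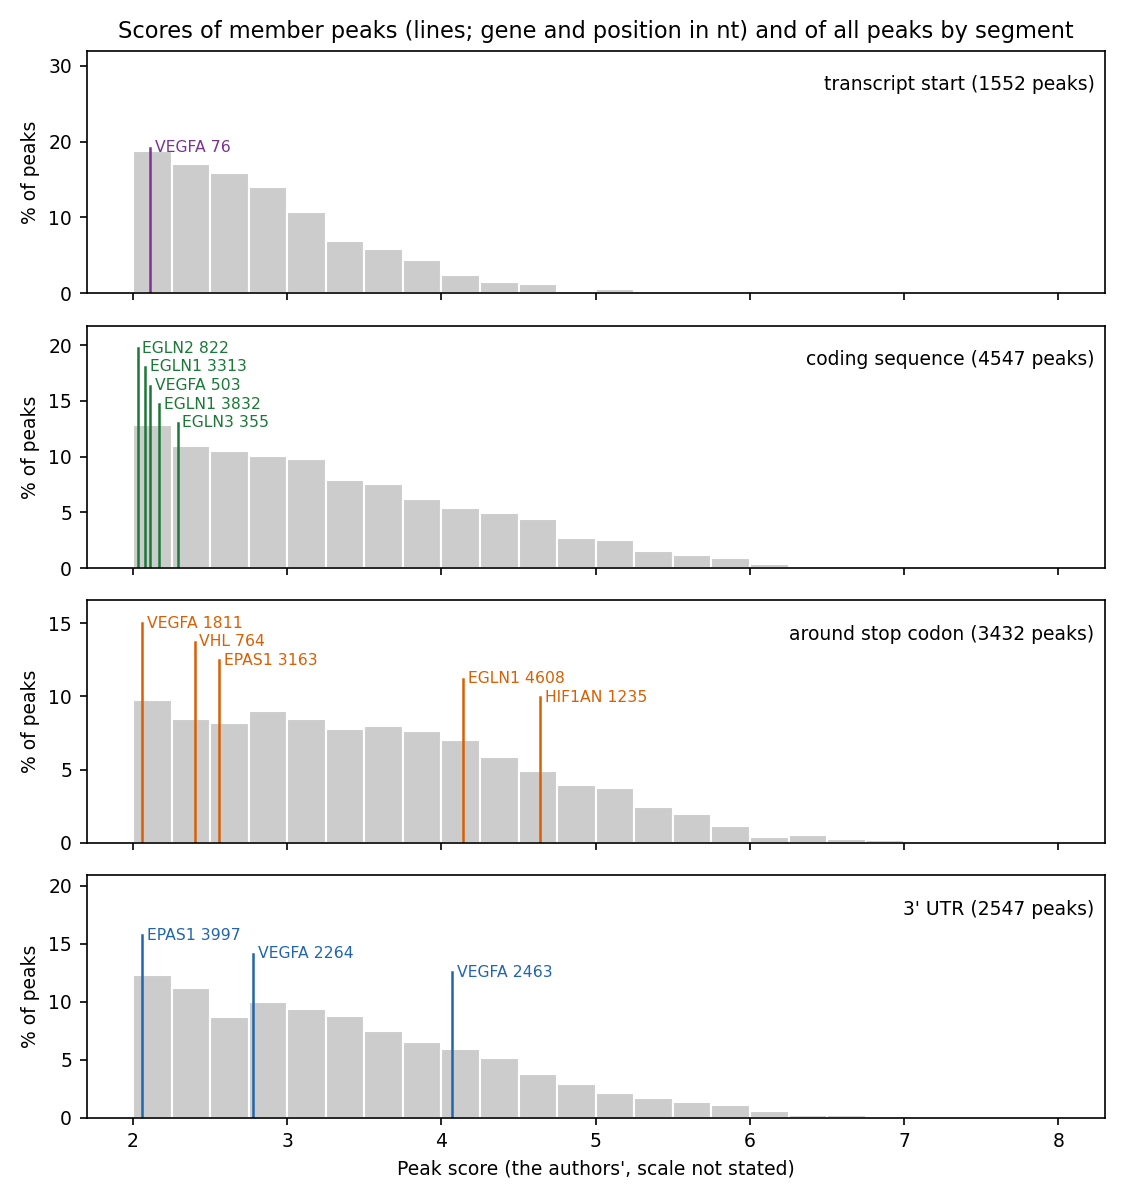
Scores of all peaks of each segment (grey bars, percent of that segment's peaks in steps of 0.25) with the peaks of the 9 genes as coloured lines, named by gene and position in nt. The 5 coding sequence peaks lie between 2.03 and 2.29, at the low end of their segment, while HIF1AN, EGLN1 and VEGFA each have a peak above 4.

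The consensus lay close to the listed positions. RRACH was found within 50 nt of 13 of the 14 peaks, against 90.1% of 1232 peaks in 647 other transcripts matched exactly to GENCODE. Within 25 nt it was again found at 13, against 74.4%. The exception was the EPAS1 peak around the stop codon, whose nearest RRACH, a GGACT, lay 53 nt downstream. At windows 300 nt away on the same transcripts (downstream, or upstream where the transcript ended), 8 of 14 had RRACH within 50 nt and 5 within 25 nt, against 76.9% and 52.2% of the matched peaks. The median distance to the nearest RRACH was 9.5 nt in the 14 peaks and 12 nt in the matched peaks. In EGLN3, HIF1AN and VEGFA (position 503) the listed position fell on the A of the motif itself, 3 of 14 peaks, against 2.52% of matched peaks. The HIF1AN placement rests on the span, and the VEGFA position lies in a run of overlapping sites, where a match is easier. GGACT, the form known as the most favoured, lay within 50 nt of 5 of the 14 peaks (1 each of EGLN2 and HIF1AN, 1 of EGLN1 and 2 of VEGFA), against 31.0% of matched peaks. The strong EGLN1 peak had 2 RRACH within 50 nt, the nearer an AAACA, and no GGACT. RNA fragments of about 100 nt limit the resolution, so a motif match is a description and not a mapped site.

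**Figure D4:**
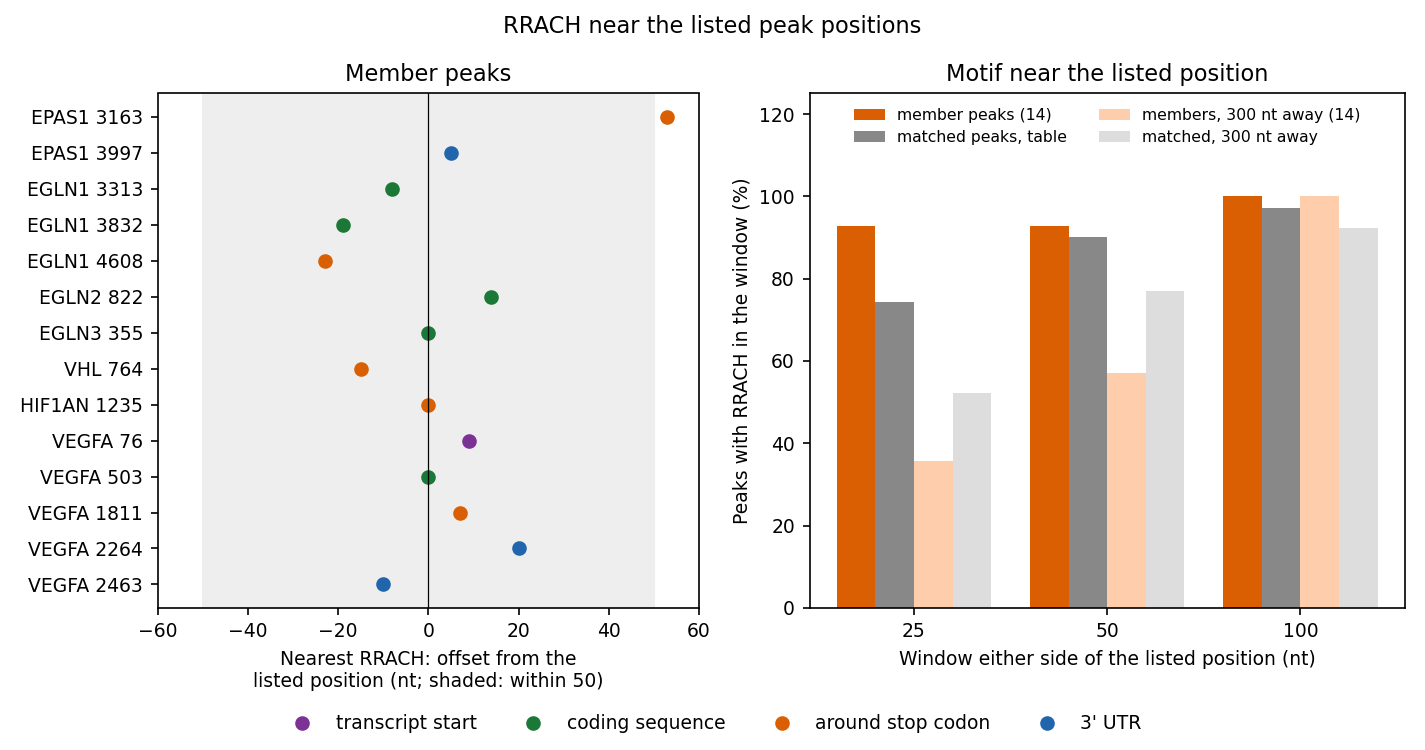
Left, the offset in nt from each of the 14 listed positions to its nearest RRACH (gene and position on the y axis, coloured by segment, shading marks 50 nt). Right, the percentage of peaks with RRACH within 25, 50 or 100 nt, for the 14 peaks, the 1232 matched peaks and points 300 nt away from each. All but the EPAS1 peak at position 3163 lie within 23 nt of an RRACH.

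Long end exons held all of the 14 peaks. Each lay in the first or the last exon of its model, against 72.1% of the matched peaks, and each in an exon of at least 683 nt as the table gives it, against 71.3% of the peaks of coding transcripts. The bound of 683 nt is the shortest exon with a peak here, EGLN3's first, and was set after the values were seen. All 14 peaks therefore meet it by construction, and the 71.3% is no contrast to them. HIF1A and ARNT, without a peak, also have long last exons, of 1325 and 2406 nt, while their longest internal exons are 434 and 214 nt. No row overlapped any of the 9 genes apart from FKSG58, listed on the opposite strand over the whole of EGLN2 at the lowest quantile and without a peak.

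Other genes of the pathway gave context. Of 26 genes of the oxygen sensing machinery (partners, ligases, coactivators and modifiers), 11 had a peak (42.3%), against 41.5% of gene symbols above the lowest quantile. Their median quantile was 0.820, and 70.1% of coding transcripts between 0.80 and 0.85 had a peak. The list ran from 0.353 to 0.999, so that bin is only a rough guide. A peak of at least 3 was present in 10 of the 26, against 28.7% of gene symbols above the lowest quantile. Among the 6564 coding transcripts with a quantile between those of EGLN3 and VEGFA the share was 48.0%. The count is not a result about this list. The median top score of its genes with a peak was 4.51. The highest of these 26 were the HIF coactivator CREBBP (5.96), SENP1, a protease that acts on HIF1A (5.12), and EP300, the paralog of CREBBP, with 7 peaks (4.92). The paralog ARNT2 had a 3′ UTR peak of 3.93 at a quantile of 0.662, below that of ARNT, which had none. HIF3A, the third alpha subunit, was barely expressed (0.355) and had no peak. None of the other subunits of the VHL ubiquitin ligase had one, namely TCEB1 and TCEB2 (elongins C and B), CUL2 and RBX1, at quantiles of 0.799, 0.994, 0.653 and 0.829. In the quantile bins that hold these values, 66.0%, 67.2%, 56.1% and 70.1% of coding transcripts had a peak. These 4 were singled out after their values were seen and transcript length was not matched, so this is not a result about the ligase. The most expressed gene without a peak was GNB2L1, also called RACK1 (0.999).

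Of 48 hypoxia target genes, 28 had a peak (58.3%), against 41.5% of gene symbols above the lowest quantile. The median top score of the 28 was 4.0. The median quantile of the 48 was 0.787, and 66.0% of coding transcripts between 0.75 and 0.80 had a peak. The 48 ran from 0.314 to 0.999, so that bin is only a rough guide and the count is not a result about this list. PFKFB3, which makes an activator of glycolysis, scored 5.64, the transferrin receptor TFRC 5.26 and the collagen cross-linking enzyme LOX 5.04. GAPDH had none at 0.999. In 10 of the 28 genes all peaks lay at the transcript start, against 11.8% of all genes with a peak. None of the 7 regulators with a peak was of that kind, which is near the share over all genes and is not a contrast. EPO, the classical EPAS1 target, stood at the lowest quantile without a peak.

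Among 9 genes of the VEGF family and its receptors, 4 had a peak (44.4%), against 29.1% of all gene symbols. Of the 9, 6 stood above the lowest quantile and 4 of these had a peak, against 41.5% of gene symbols above it. Expression was not matched further, so these small counts are not a result about this list. VEGFC had a single stop codon peak of 5.65 at a quantile of 0.681, above the top score of VEGFA, whereas VEGFB, expressed like VEGFA (0.961), had 1 of 2.19 in the 3′ UTR. The co-receptors NRP2 and NRP1 scored 5.45 and 4.96. The receptors FLT1, KDR and FLT4 were all at the lowest quantile, and PGF had no peak at 0.430. Of 21 other oxygenases that, like the EGLN enzymes and HIF1AN, use oxoglutarate, 12 had a peak (57.1%), against 41.5% of gene symbols above the lowest quantile. At their median quantile, 0.797, the share of coding transcripts was 66.0%. The list ran from 0.314 to 0.983, so that bin is only a rough guide. PLOD1 and PLOD2, collagen lysyl hydroxylases, scored 6.13 and 5.43 and the methylcytosine oxidase TET3 4.98 with 10 peaks. The RNA demethylase ALKBH5 had none at 0.968, and P4HTM, a membrane prolyl hydroxylase that can act on HIF, had a stop codon peak of 2.65. P4HA1, P4HA2, JMJD6 and P4HTM stand in 2 of these lists.

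**Figure D5:**
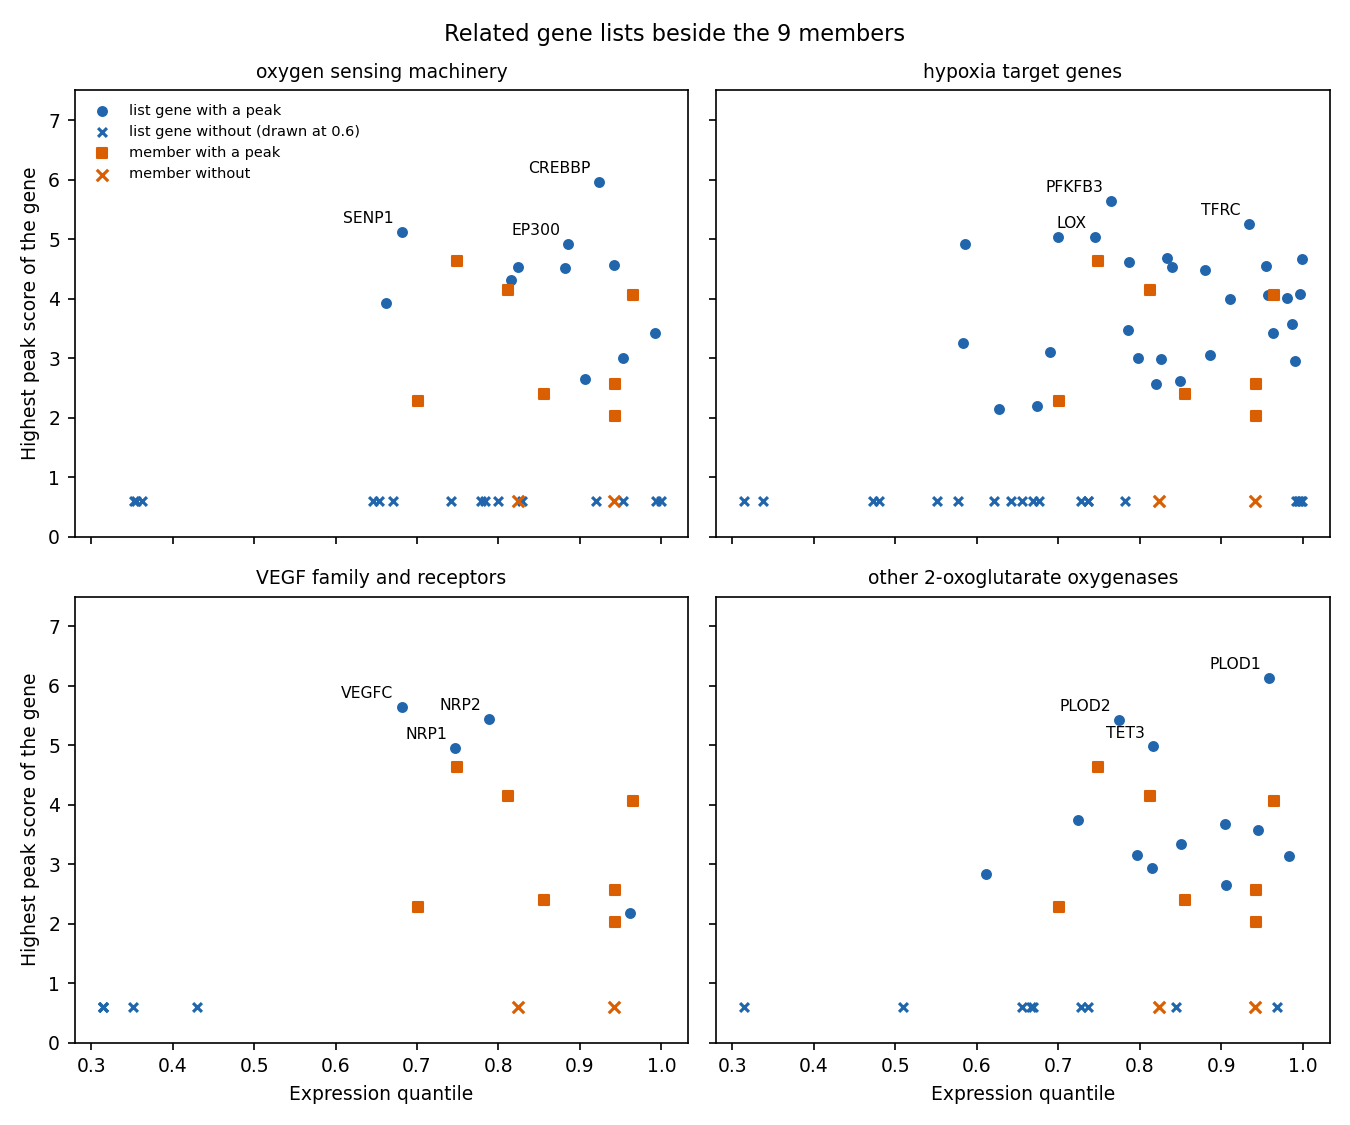
Expression quantile (x axis) and highest peak score (y axis, the authors' units) of each gene in 4 related lists (blue), with the 9 regulators repeated in each panel (orange). Crosses are genes without a peak, drawn at 0.6 for display only. Among the regulators only HIF1AN, EGLN1 and VEGFA exceed a score of 4, while PFKFB3, CREBBP and PLOD1 reach 5.64 to 6.13.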

How the data were processed

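The deposited file is 1 table over 7 libraries (4 m6A-IP, 3 input). Per the file headers, the authors give each transcript an expression quantile, a fraction from 0 to 1, and list its peaks with position, exon number and length, segment and a score of no stated scale. For the aligner, the peak caller and the build, the entry is: not given in the sources used here. Members and lists were chosen with earlier results of these data known. All 9 members are named, with the 3 highest scores of each list, its most expressed gene without a peak and paralogs of members. List genes were matched by current or older symbol (21 of 23 for the oxygenases, all of the others), and 1 gene of the oxygen sensing list is not reported here and was left out of its counts.

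No member equalled a GENCODE release 29 transcript in span. Peak positions were placed on 1 chosen GENCODE transcript per gene, from the table's span and the number and length of exons with a peak. Those exons were all first or last ones, so the lengths of internal exons could not be checked. For HIF1A and ARNT, without a peak, no exon length was listed. The 5′ ends differed by 0 to 25 nt, and by 731 nt in EGLN2 and 627 nt in VHL. The table ended 1934 nt before the GENCODE 3′ end in EGLN1 and 6074 nt before it in HIF1AN. For EPAS1, EGLN2, EGLN3, VHL and HIF1AN 1 end follows from the span alone, so a build difference in an intron would shift it. The authors' segments equalled the model's for 14 of 14 peaks, and for 99.3% of 1232 peaks in 647 transcripts matched exactly by symbol, span and exons. Table coordinates are counted from 1. RRACH (GGACT included) was searched on the transcript strand only. Length matching used the longest GENCODE coding transcript, within 25%, and quantiles within 0.05. Wilson intervals (95%) came from SciPy 1.17.1. Motif and segment rules were tested on simulated sequences with a planted GGACT. That test did not cover other RRACH forms or overlapping sites.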

Additional observations from a re-analysis of the deposited data

How the results depend on the processing

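Of the 9 genes, the number with a peak fell from 7 to 4 with scores of at least 2.5, to 3 with at least 3 and to 3 with at least 4, and was 7 without transcript start peaks. Among other coding transcripts with quantiles in the members' range, 59.2%, 48.0%, 24.8% and 60.6% had such a peak. With scores of at least 3, 0 peaks were left at the transcript start, 0 in the coding sequence, 2 around the stop codon and 1 in the 3′ UTR, so the coding sequence peaks of exon 1 depend on the authors' threshold. RRACH was found at 13 or 14 of the 14 peaks at 25, 50 and 100 nt, as DRACH (T also allowed first) and with the other VEGFA exons, and GGAC at 11. At 100 nt, RRACH and DRACH were also found at 14 of 14 points 300 nt away, so that window shows no contrast. Within 50 nt of those points DRACH was found at 10 of 14 and GGAC at 5. The share of like-expressed transcripts with a peak ran from 58.2 to 71.4% over the members, from 60.3 to 71.9% within 0.05 and from 58.2 to 72.7% within 0.01 of the quantile. With length matched, an alternative added after seeing the data like the VEGFA forms, it ran from 53.7 to 81.2%. The counts of the 4 related lists stayed within 1.5 times. No paired analysis was possible because the table holds no value per library, and no library could be left out. Depth is unknown, so what it hides could not be assessed.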
